A study of Homo sapiens with 4 samples.

Results

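The genes described are 10 regulators and targets of mTORC1, the protein kinase complex through which cells match growth to nutrients and stress: the sestrins SESN1, SESN2 and SESN3, DDIT4 (also called REDD1) and its relative DDIT4L, TSC1 and TSC2, RHEB, MTOR and EIF4EBP1. They were chosen by name, as the probes that carry a member's symbol or a RefSeq transcript of it, which gave 12 of the 50238 probes on the array. The cells were A549, a human lung adenocarcinoma line, and every sample had been kept in medium with reduced serum for 12 h before the experiment. The groups compared at 4 h were untreated controls (2 samples) and cells given 15 µM embelin (2 samples), a benzoquinone with a long alkyl chain, and each sample was hybridized in a single colour (Cy3) to 1 array. No allele, vector or second agent entered either group, and whether the 2 samples of a group came from separate cultures is not stated, so that p-values measure the spread between these arrays, which may be technical. As the work used 1 cell line, 1 dose and 1 time, the values describe that setting.

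mTORC1 promotes protein synthesis and restrains autophagy when amino acids, growth factors and energy are plentiful. It is switched on at the lysosome by the GTPase RHEB, which the TSC1 and TSC2 proteins hold in its inactive form, and by the Rag GTPases, which report amino acids. DDIT4 acts through the TSC proteins, whereas the sestrins bind the GATOR2 complex upstream of the Rag GTPases, and both kinds of brake are known to be made under stress. EIF4EBP1 is a repressor of cap-dependent translation that mTORC1 phosphorylates and thereby inactivates. Much of this control acts on proteins, and the arrays measured transcripts alone.

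The sequences below identify what was measured and what lies before the genes that were called. Each probe is 60 bases long and its first 30 bases are shown, 5′ to 3′, as given by the array design. The coordinate field of these probes read unmapped, so the exon or untranslated region under each was not analysed here. SESN1 is shown with both of its probes because they were read separately.
SESN2 probe: cctgccgcagatgtctcccaaaaagttgag
DDIT4 probe: tcgtggaggtggtttgtgtatcttactggt
SESN1 brighter probe: aggctgccattcacagtattttgctttttg
SESN1 dimmer probe: ttaaccagctattggatcgtagctttaaag

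The promoter windows of SESN2 and DDIT4, the 2 members called after adjustment, were taken from RefSeq (GRCh38.p14), from 250 bases before to 50 bases after the start of the gene. SESN2 lies on chromosome 1 (28259518 to 28282491) and DDIT4 on chromosome 10 (72273924 to 72276036), both on the plus strand. Capitals mark CCAAT boxes (CCAAT, or ATTGG on the other strand), the 2 forms of the hypoxia response core (ACGTG and GCGTG, either strand) and the C/EBP-ATF element bound by ATF4 (TGATGNAA, either strand).
SESN2 chr1:28259268-28259567: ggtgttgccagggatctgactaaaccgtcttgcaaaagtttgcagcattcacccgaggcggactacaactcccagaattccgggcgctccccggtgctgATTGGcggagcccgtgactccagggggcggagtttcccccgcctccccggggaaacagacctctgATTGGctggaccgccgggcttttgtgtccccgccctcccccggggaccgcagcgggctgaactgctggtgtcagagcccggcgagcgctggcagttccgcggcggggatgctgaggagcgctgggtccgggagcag
DDIT4 chr10:72273674-72273973: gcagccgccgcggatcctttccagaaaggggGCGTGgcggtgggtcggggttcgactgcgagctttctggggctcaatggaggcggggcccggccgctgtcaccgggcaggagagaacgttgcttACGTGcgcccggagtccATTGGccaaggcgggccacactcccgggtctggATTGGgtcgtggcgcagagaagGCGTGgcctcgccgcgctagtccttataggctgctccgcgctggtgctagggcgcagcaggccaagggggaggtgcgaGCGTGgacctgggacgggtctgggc
The DDIT4 window held ACGTG once, 125 bases before the start, and GCGTG 3 times, at 219 and 53 bases before the start and at 25 bases after it. Of all 35116 windows of the same length, 21.4% held ACGTG and 36.5% held GCGTG. Among 12 member starts, ACGTG was at 3, of DDIT4, RHEB and TSC2, and GCGTG at 3, of DDIT4, MTOR and SESN1. Both genes had 2 CCAAT boxes, which 34.6% of windows held at least once. The box was at 6 of the 12 member starts, those of MTOR, RHEB and SESN1 among them. RHEB, TSC2, MTOR and SESN1 were not called. In the SESN2 window the capitals mark CCAAT boxes alone. The C/EBP-ATF element, held by 3.62% of windows, was in neither and among the members was found at a start of TSC2. Nor was the cAMP response element (TGACGTCA, in 1.85% of windows) or the forkhead element (GTAAACA, in 3.42%) found at any of the 12 starts of the 9 members that had an entry. These are matches of letters in short windows and not binding sites.

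Each array gave 50238 probes, of which 50.3% to 66.7% were well above background. Control replicate 2 and embelin replicate 1 had the noisier background. All 4 arrays lay on 1 slide, with embelin in the inner positions (2 and 3) and control in the outer ones (1 and 4), so that inner placement and treatment cannot be told apart. Signals are given as log2 of the intensity after the 75th percentile of every array had been set equal, and changes are embelin minus control on that scale. The A549 label was checked with 8 epithelial and lung carcinoma genes (KRT8, KRT18, KRT19, CDH1, EPCAM, AKR1B10, AKR1C1 and ALDH1A1), and 8 of the 8 were well above background on every array, with a summed signal of 824536 and 859828 in the controls and 738254 and 746757 with embelin. Of 8 genes of blood, endothelium and fibroblasts, CD14 and COL1A1 were above background on all 4 arrays and DCN on none. Their summed signal was 876 and 997 in the controls and 1552 and 775 with embelin, and on embelin replicate 1 PTPRC and COL3A1 crossed background, which they did on no other array. COL1A1, a collagen gene of fibroblasts, was higher on both embelin arrays, at 6.38 and 6.27 in the controls and at 7.56 and 7.69 with embelin (log2 fold change 1.30, limma adjusted p = 0.0547). The part of these genes in the results was not tested.

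Transcripts of 2 mTORC1 brakes were higher on the embelin arrays, SESN2 by 8.08-fold and DDIT4 by 3.36-fold. TSC1, TSC2, RHEB and MTOR, the core of the switch, differed from the controls by 1.11- to 1.30-fold and were not called. Of the 10 members 9 passed the filter on dim probes, each with both arrays of both groups above background, and SESN3 did not. Called after adjustment over all genes by limma, a moderated linear model, were 2 members higher and 0 lower, where 1.25% of the 17649 genes tested were called higher and 0.561% lower. At an unadjusted p below 0.05, 4 members were higher and 1 lower, where 8.36% of all genes were higher, 11.1% lower and 19.5% passed in either direction. With at least a 2-fold change asked for as well, 3 members were higher (SESN1, SESN2 and DDIT4) and 0 lower, against 4.27% and 3.99% of all genes. The methods' t-test left 0 members after adjustment, and 0 of all 17649 genes. The paper names no adjustment and asks for a 2-fold change and a cut-off of 0.05. Without adjustment this t-test passed 3 members at 0.05, all higher (SESN2, DDIT4 and EIF4EBP1), beside 1170 genes higher and 1585 lower. Of the 3, SESN2 and DDIT4 also changed at least 2-fold, and SESN1 did not pass the t-test. The arrays of the groups did not overlap for 5 members in the higher direction, against 20.7% of all genes, and for 2 in the lower direction, against 30.1%. Over the 9 members the median log2 fold change was 0.38, and over all genes it was -0.06. With 2 arrays against 2, an exact two-sided permutation test cannot give a p below 0.333.

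**Figure D1:**
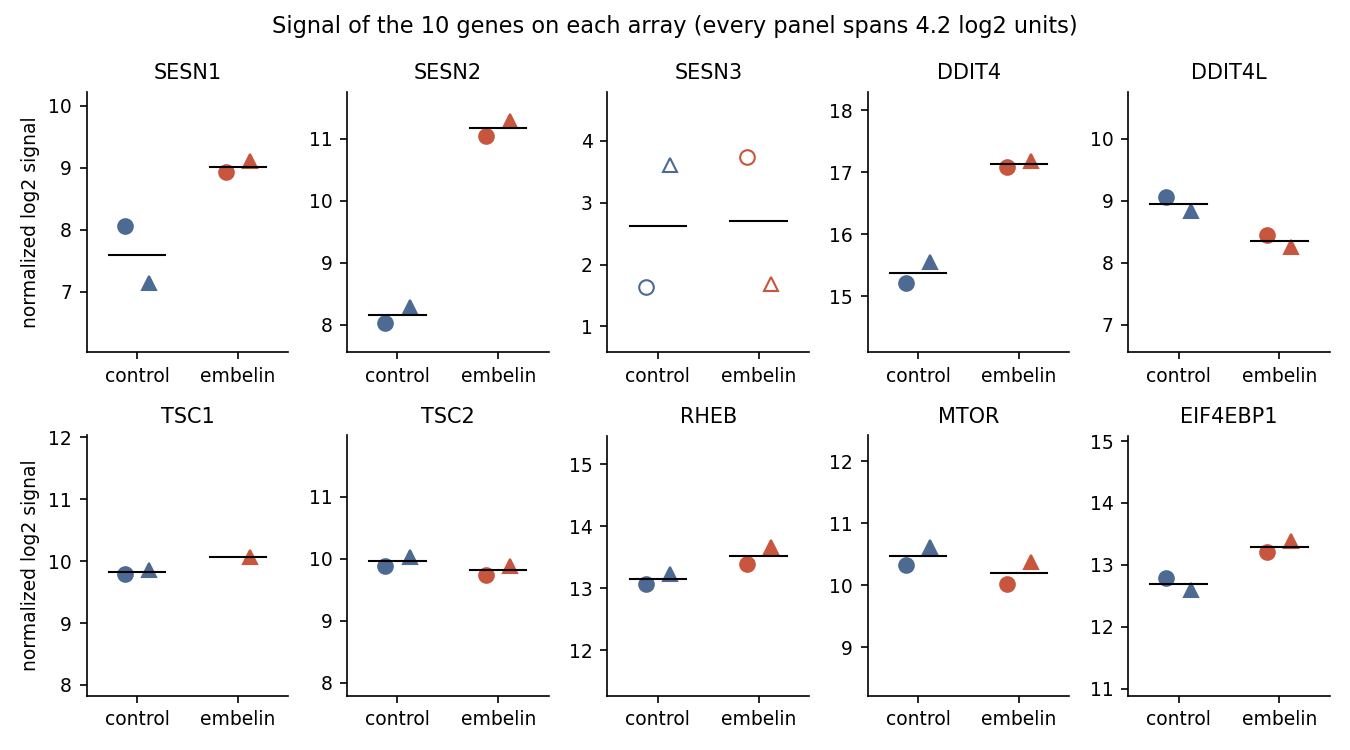
Normalized log2 signal of each member on every array, with control in blue and embelin in red; circles are replicate 1, triangles replicate 2, bars the group means and open symbols signals not well above background, and the outlier spot of TSC1 on embelin replicate 1 is left out. SESN2 went from 8.02 and 8.28 to 11.04 and 11.29, and SESN3 was not above background on any array.

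SESN2 is the stress-induced sestrin and a leucine-sensitive partner of GATOR2. Untreated cells gave signals of 8.02 and 8.28 and embelin-treated cells 11.04 and 11.29. The groups lay far apart and the arrays within each close together. The log2 fold change was 3.01 (standard error, SE, 0.20, limma adjusted p = 0.0233), higher than in 99.4% of all genes tested. In a sample of 1 cell line taken as bulk RNA, more transcript in each cell and more cells with the transcript cannot be told apart. When the 2 arrays with low background were compared with each other the difference was 3.27, and between the 2 arrays with the noisier background it was 2.76. The call was lost when any 1 array was left out, and so was that of every other gene. The log2 fold change was then 2.88 without control replicate 1 and 3.15 without control replicate 2. It was 3.14 without embelin replicate 1 and 2.89 without embelin replicate 2.

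SESN1, first described as a target of p53, had 2 probes that passed the filter. At the brighter one the signal was 8.05 and 7.14 in the controls and 8.93 and 9.11 with embelin. Both embelin arrays lay above both controls, but the controls differed from each other by nearly 1 unit. The log2 fold change of 1.43 (SE 0.36) was therefore not called (limma adjusted p = 0.148), and its 95% interval ran from 0.44 to 2.41. Dropping control replicate 2 brought it to 0.97 and dropping control replicate 1 to 1.88. At the dimmer probe the signal was 5.68 and 5.05 in the controls, of which replicate 2 was not above background, and 6.93 on embelin replicate 2. The spot on embelin replicate 1 had been marked as an outlier by the scanner software, with a signal of 14.23, and was left out. This probe gave a log2 fold change of 1.57 (SE 0.38, limma adjusted p = 0.194 over all probes), on 1 embelin array.

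SESN3, a sestrin known as a target of FOXO factors, was at 1.63 and 3.61 in the controls and at 3.74 and 1.68 with embelin. All these values are surrogates set by the scanner software, none was well above background, and no change can be given. The sestrin transcripts measured in these cells were thus those of SESN1 and SESN2.

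DDIT4 is a short-lived protein known to be induced by hypoxia, glucocorticoids and stress of the endoplasmic reticulum. Its probe was bright in untreated cells, at 15.21 and 15.55, and stood at 17.08 and 17.18 with embelin. The groups were well apart and the embelin arrays differed by 0.10. No spot on these arrays was saturated. The log2 fold change was 1.75 (SE 0.20, 95% interval 1.20 to 2.30, limma adjusted p = 0.0480), above 97.5% of all genes. Within the arrays of low background the difference was 1.98 and within those of noisier background 1.53. The adjusted p lay close to the threshold and the call was lost under 12 of 16 other ways of processing at gene level, quantile normalization (limma adjusted p = 0.0621) and each left-out array among them. Apart from quantile normalization, the deposited table and outlier spots kept, these ways left no gene called at all. Leaving out 1 array gave log2 fold changes of 1.58 without control replicate 1, 1.92 without control replicate 2, 1.80 without embelin replicate 1 and 1.70 without embelin replicate 2, with adjusted p from 0.101 to 0.229 from limma.

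DDIT4L, a paralogue of DDIT4 that restrains mTORC1 in muscle and other tissues, lay on the other side. Its signal was 9.06 and 8.83 in the controls and 8.45 and 8.25 with embelin, so that both embelin arrays were below both controls. The log2 fold change of -0.59 (SE 0.19) did not pass adjustment (limma adjusted p = 0.210), with a 95% interval from -1.11 to -0.08.

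**Figure D2:**
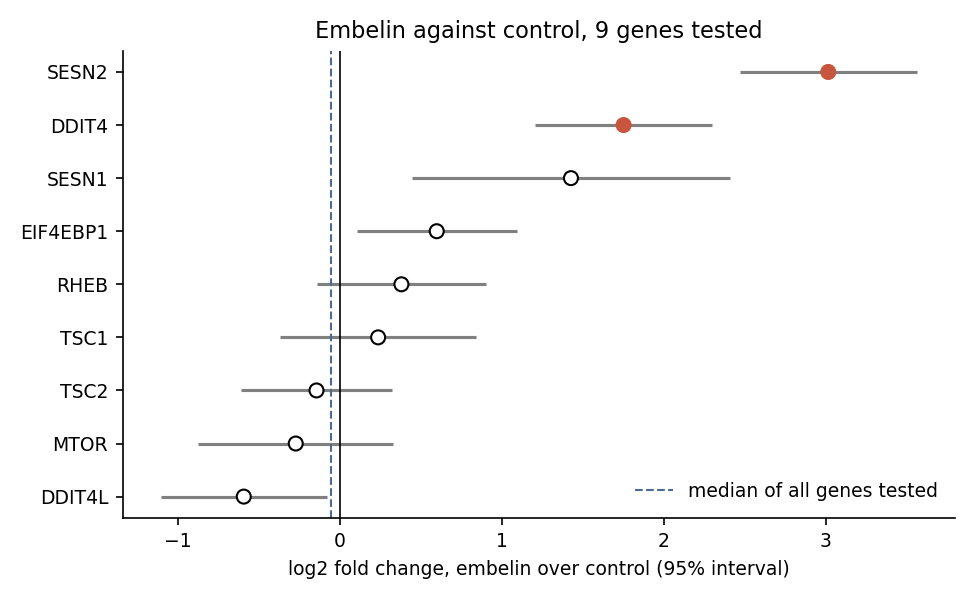
Log2 fold change of the 9 members tested, embelin over control, with 95% intervals from limma; filled points were called after adjustment over all genes and the dashed line is the median of all genes tested, -0.06. SESN2 at 3.01 and DDIT4 at 1.75 are the filled points, and the intervals of RHEB, TSC1, TSC2 and MTOR cross 0.

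TSC1 and TSC2 form, with TBC1D7, the complex that turns RHEB off. The signal of TSC1 was 9.80 and 9.85 in the controls and 10.06 on embelin replicate 2, and the spot on embelin replicate 1 had been left out as an outlier at 10.90. The fit therefore rests on 1 embelin array and gave a log2 fold change of 0.24 (SE 0.22, limma adjusted p = 0.639), or 0.65 with the outlier spot put back. TSC2 was at 9.89 and 10.03 in the controls and at 9.74 and 9.88 with embelin. Its arrays did not overlap, yet the difference of -0.15 was smaller than its SE of 0.17, and it ranged from -0.22 to -0.07 as each array was left out. The 95% interval ran from -0.61 to 0.32 for TSC2 and from -0.37 to 0.84 for TSC1, so that equal levels are not shown.

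RHEB, the GTPase that activates mTORC1, was at 13.07 and 13.23 in the controls and at 13.39 and 13.66 with embelin. Both embelin arrays were higher, with a log2 fold change of 0.38 (SE 0.19, limma adjusted p = 0.377), or 0.24 without embelin replicate 2. A second RHEB probe was above background on 1 array of each group and did not pass the filter. MTOR, the kinase itself, which the array design lists under its older symbol FRAP1, was at 10.33 and 10.61 in the controls and at 10.02 and 10.37 with embelin. These groups overlapped, and the log2 fold change was -0.27 (95% interval -0.88 to 0.33). Leaving out 1 array moved it from -0.45 (without embelin replicate 2) to -0.10 (without embelin replicate 1), with -0.42 without control replicate 1 and -0.13 without control replicate 2.

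EIF4EBP1 encodes the 4E-BP1 repressor of translation. Its signal was 12.79 and 12.60 in the controls and 13.20 and 13.38 with embelin. The groups did not overlap, and the 2 pairs of arrays with like background gave differences of 0.59 and 0.61. Pairs taken by replicate number differed more from each other, so that this closeness depends on how the arrays are paired. The log2 fold change was 0.60 (SE 0.18, 95% interval 0.10 to 1.09) and failed adjustment (limma adjusted p = 0.196). Its relatives were EIF4EBP2 at -0.53 and EIF4EBP3 at 0.01, neither called, both being named outside the rule for named genes.

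**Figure D3:**
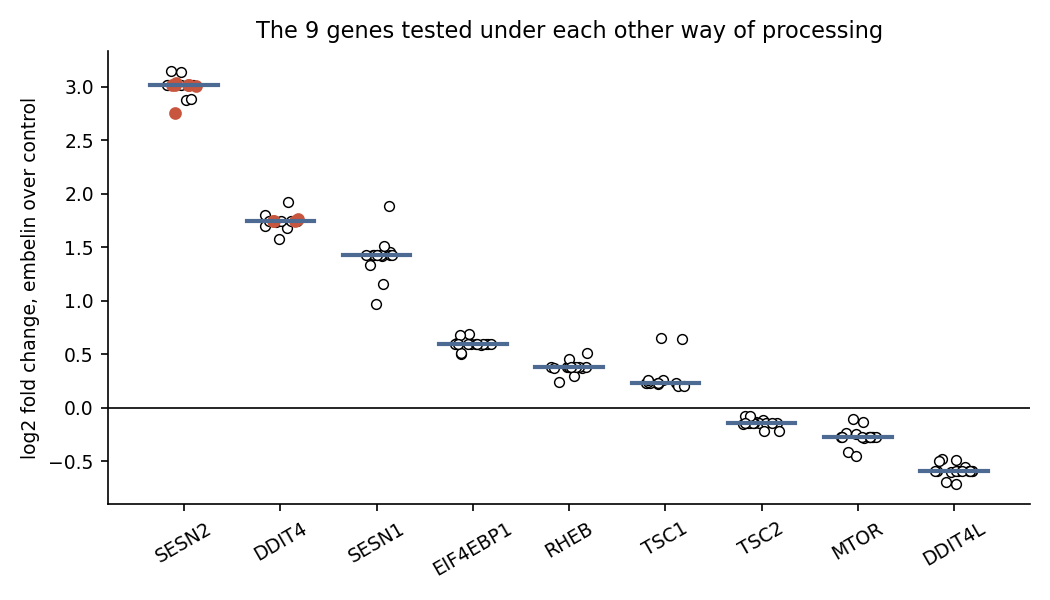
Log2 fold change of each member tested, embelin over control, with the blue bar for the value reported and points for the other ways of processing, filled where the gene was called after adjustment. Every point lies on the same side of 0 as its bar, and filled points occur for SESN2 and DDIT4. Points of settings that changed only the test or the filter repeat the value of the bar.

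Around these members, 82 other genes of the mTORC1 pathway were examined in 6 lists, and 77 were tested. After adjustment 1 was higher and 1 lower, both among the inputs from growth factors, which compares with 1.81% of all genes called in either direction. The median log2 fold change was -0.11. GRB10, an adaptor that mTORC1 stabilises and that dampens insulin receptor signalling, was at 11.91 and 12.09 in the controls and at 14.26 and 14.37 with embelin. The log2 change was 2.32 (SE 0.17, limma adjusted p = 0.0264). IRS1, the insulin receptor substrate that couples the receptor to PI3K, went the other way, from 10.12 and 9.81 to 7.65 and 7.94, a log2 fold change of -2.17 (SE 0.21, limma adjusted p = 0.0393). The groups of both genes lay well apart. Neither call held with any 1 array left out, and nor did that of any other gene. GRB10 then ranged from 2.23 to 2.40 and IRS1 from -2.33 to -2.02. With the deposited table or outlier spots kept, IRS1 also lost its call (limma adjusted p = 0.0534 and 0.0528). GRB10 kept its own there (limma adjusted p = 0.0367 and 0.0362). In this list of 16 genes tested, the median was -0.14.

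Of the 10 genes tested for the Rag GTPases, Ragulator and folliculin, 0 were called after adjustment by limma, while 5 were higher and 1 lower at an unadjusted p below 0.05, beside 8.36% and 11.1% of all genes. The median log2 fold change of 0.37 stands beside -0.06 for all genes. RRAGC, a Rag GTPase, was at 12.40 and 12.41 in the controls and at 13.42 and 13.29 with embelin (log2 fold change 0.95, SE 0.16, limma adjusted p = 0.0807). FLCN, folliculin, which acts on RRAGC and RRAGD, was at 10.66 and 10.64 and then at 11.51 and 11.54 (log2 fold change 0.87, SE 0.16, limma adjusted p = 0.0875). Both genes had arrays that lay close together within each group. RRAGC was called under 3 of 16 alternatives at gene level (limma adjusted p from 0.0152 to 0.0458) and FLCN under 1 (0.0286). A second FLCN probe gave 1.39 and was not called. The other 3 at an unadjusted p below 0.05 were RRAGA at 0.83, RRAGD at 0.80 and LAMTOR3 at 0.63, and SLC38A9, the arginine sensor of the lysosome, was at -0.65. These 4 fall outside the rule for named genes and were picked after their values were seen.

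Among 14 genes of the GATOR complexes, KICSTOR and the amino acid sensors, 0 were called and the median was -0.15. ITFG2, a KICSTOR subunit, had a log2 fold change of 1.00 at its brighter probe (limma adjusted p = 0.106) and 0.34 at its other probe (0.588). DEPDC5, a GATOR1 subunit, was at -0.94 (0.113). Among 11 genes of the mTOR complexes and their assembly 0 were called, with a median of -0.21. MAPKAP1, a subunit of mTORC2, was at -0.998 and TTI2, an assembly factor, at -0.92, with standard errors of 0.30 and 0.39. The other 3 MAPKAP1 probes gave -1.89, -0.18 and -0.14, and without embelin replicate 1 the value was -0.66. TTI2 was at -0.53 without control replicate 2 and at -0.58 without embelin replicate 1. PRR5L, another mTORC2 subunit, had the largest change of this list, 1.49 (SE 0.28, limma adjusted p = 0.0906), with 5.53 and 5.11 in the controls and 6.56 and 7.06 with embelin. Its signal on control replicate 2 was not above background, which puts it outside the rule for named genes. For LKB1 and AMPK, the energy sensor that acts on TSC2, 0 of 10 were called and the median was 0.25. PRKAG2, a regulatory subunit of AMPK, was at 0.77 (limma adjusted p = 0.143), with 0.48 at a second probe, and STRADA, a partner of LKB1, at -0.62 (0.200). Without adjustment the 3 lists held 2, 1 and 1 genes higher and 1, 1 and 1 lower, in the order given, where 19.5% of all genes passed in either direction.

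The substrates and outputs of mTORC1 held 16 genes tested, again with 0 called, and 1 higher and 3 lower before adjustment, beside 8.36% and 11.1% of all genes. Their median was -0.20. ULK1, the autophagy kinase that mTORC1 inhibits, was at 14.91 and 14.98 in the controls and at 16.13 and 16.28 with embelin. Its groups were far apart relative to their spread, and the log2 fold change of 1.26 (SE 0.17) missed the threshold at an adjusted p of 0.0569 from limma. It was called with normexp, the filter asking for all 4 arrays and trend and robust eBayes (limma adjusted p from 0.00433 to 0.0279) and under no other alternative at gene level (0.0611 to 0.429). TFEB, the transcription factor of lysosomal genes, had a control mean of 9.03 and was at 8.30 and 8.36 with embelin, a log2 fold change of -0.70 (SE 0.16, limma adjusted p = 0.126).

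**Figure D4:**
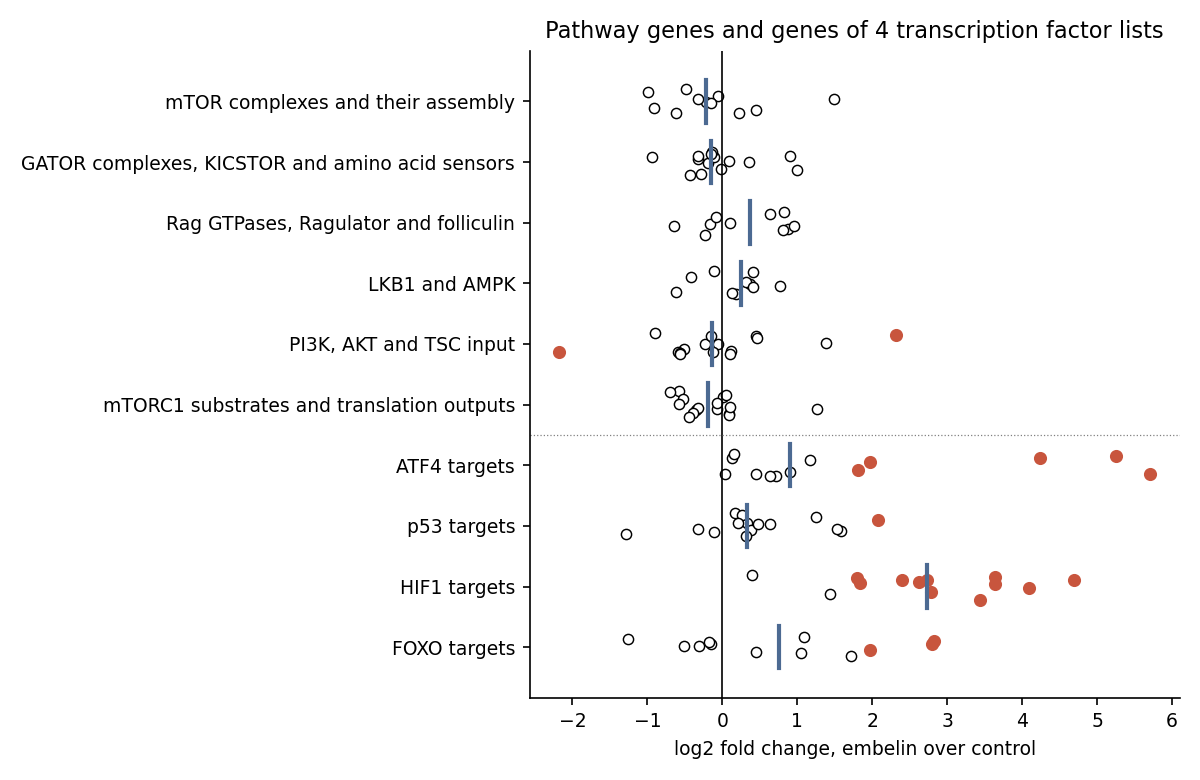
Log2 fold change, embelin over control, of each gene tested in the 6 mTORC1 pathway lists (above the dotted line) and in 4 lists of transcription factor targets (below it); filled points were called after adjustment and blue bars are list medians. The pathway lists hold 2 filled points, GRB10 and IRS1, and the HIF1 list holds 11.

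Transcription of the sestrins and DDIT4 is known to respond to ATF4, p53, HIF1 and FOXO factors, so targets of each, none of them a member, were set beside them. Of 13 HIF1 targets 11 were called higher and 0 lower, beside 1.25% and 0.561% of all genes. Their median log2 fold change was 2.73. NDRG1 rose by 4.69, ANKRD37 by 4.10 and PFKFB4, an enzyme that sets the pace of glycolysis, by 3.64 on the log2 scale. VEGFA rose by 3.63, CA9, a carbonic anhydrase, by 3.44 and PDK1, which holds back pyruvate dehydrogenase, by 2.78. Of 13 ATF4 targets 5 were called higher and 0 lower, with a median of 0.91. These were ATF3 (5.71), STC2 (5.25), DDIT3 (4.24), TRIB3 (1.97) and CHAC1 (1.82). A second probe gave 5.87 for ATF3 and 3.60 for STC2, both called. For TRIB3 it gave 2.51 (SE 0.48, limma adjusted p = 0.106 over all probes) and was not called. TRIB3 also lost its call with the mean over its probes (limma adjusted p = 0.0589). All 13 ATF4 targets had a positive log2 fold change. At an unadjusted limma p below 0.05, 9 were higher, where 8.36% of all genes were. PSAT1, PHGDH and SLC7A11, which supply serine and cystine, were at 0.04, 0.13 and 0.15, the lowest of the list. ASNS and SLC7A5, also of this list, were at 0.72 and 0.45. These genes were picked after their values were seen.

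Among 15 p53 targets 1 was called, GDF15 at 2.08 (limma adjusted p = 0.0380), with BTG2 at 1.58 (0.0836) and a list median of 0.33. Of the 15, 12 had a positive and 3 a negative log2 fold change, ZMAT3 being lowest at -1.29 (limma adjusted p = 0.133). The shares called over all genes were 1.25% higher and 0.561% lower. BTG2 was called under the same 3 alternatives as ULK1 (limma adjusted p from 0.0220 to 0.0417). Of the 12 FOXO targets tested 3 were called higher and 0 lower, namely PIK3IP1 (2.82), an inhibitor of PI3K, KLF6 (2.80) and CCNG2 (1.98), with a list median of 0.75. This list was mixed in direction, with 7 positive and 5 negative values, PDK4 being lowest at -1.26 (limma adjusted p = 0.0899). At an unadjusted limma p below 0.05, 6 were higher and 2 lower, beside 8.36% and 11.1% of all genes. ZMAT3 and PDK4 fall outside the rule for named genes and were picked after their values were seen. The lists of targets were chosen with earlier results of these data known, and no factor was itself measured for activity. Which of them, if any, acts on SESN2 or DDIT4 was not tested.

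The genes whose differences from the control mean lay nearest to those of SESN2 over the 4 arrays, among 11526 candidates, were PLAUR (Euclidean distance 0.17), KDM7A (0.21), BMP6 (0.22), KLF7 (0.23) and PIK3IP1 (0.30). Nearest to DDIT4 were PPP1R3G (0.03), DNAJB2 (0.11), HRH1 (0.12), BNIP3 (0.15) and B3GNT4 (0.16). PPP1R3G, for one, was at 9.01 and 9.37 in the controls and at 10.87 and 11.00 with embelin. With 4 arrays such nearness says little beyond a like size of change, from 2.82 to 3.02 around SESN2 and from 1.69 to 1.80 around DDIT4.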

How the data were processed

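The authors deposited intensities of single-colour Agilent arrays made with Feature Extraction 10.7.3.1, in which background subtraction, spatial detrending and surrogates for dim spots had been applied, but no scaling between arrays. The intensities of a second deposited table of probe values differed from their averages for 97 to 117 of 50238 probes. Here each array was scaled to a common 75th percentile (the shift the methods name), given a floor of 1 and log2-transformed, outlier spots were left out, and probes well above background on both arrays of a group were kept (26146). Probes were named by accession in RefSeq (28595), through another probe of the same name (2341) or by the name in the files, and the brightest kept probe stood for a gene. Groups were compared using limma 3.58.1 under R 4.3.3 (lmFit and eBayes, with a prior of 2.17 degrees of freedom), with Benjamini-Hochberg adjustment over 17649 genes and a threshold of 0.05. The code was tested on simulated data.

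Members and lists were chosen with earlier results of these data known. Genes named were the members at every probe, the called genes of each list (at most 6, or, where fewer than 2 were called, the 2 largest changes among genes well above background on all 4 arrays), and the 5 genes most like each called member. Alternatives were normexp (offset 50), quantile normalization, the deposited table, other filters, the methods' t-test, trend and robust eBayes, a replicate block, other probe rules, slide position and leaving out each array. A block for array background and keeping outlier spots were added after the values were seen. The number of arrays limits the precision.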

Additional observations from a re-analysis of the deposited data

How the results depend on the processing

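Of 9 members tested, each kept its direction under every alternative that gave a value, and none of 153 such values changed sign, 22 of them losing the call of SESN2 or DDIT4. Other filters, the methods' t-test and trend and robust eBayes returned the reported log2 fold changes. The blocks and slide position did so too, apart from TSC1. In those settings the sign could not change, and the values add nothing on direction. Nor could leaving out 1 array change the sign of members whose groups did not overlap, 5 higher and 2 lower. The same held for TSC1, whose 1 embelin array in the fit lay above both controls. Among the runs with an array left out, the sign was free to change for MTOR, and it did not. SESN2 was called under 7 of 16 alternatives at gene level, with log2 fold changes from 2.76 to 3.15 and adjusted p from 0.00138 to 0.330, and DDIT4 under 4 of 16, from 1.58 to 1.92 and from 0.00260 to 0.401. The count of members called higher, 2 as reported, was 1 with quantile normalization, the deposited table, each probe on its own or outlier spots kept. It was 0 without a filter on dim probes, by the methods' t-test, with the slide position as covariate, with array background as a block and with the replicate block, and 0 for each array left out (range 0 to 0). In these same 5 settings and with any array left out (0 to 0), the counts over all genes were 0 higher and 0 lower and that of listed genes outside the members was 0. At an unadjusted p below 0.05 the replicate block had 1673 genes higher and 2070 lower, the methods' t-test 1170 and 1585, and no filter 1106 and 1237. Samples of the same number shared no stated origin, and the deviations of same-numbered arrays from their group means correlated at 0.17 over 17298 genes, with 2 pairs.

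The counts over all genes, 221 higher and 99 lower as reported, were 422 and 277 with normexp, 419 and 345 with the filter asking for all 4 arrays, 566 and 495 with trend and robust eBayes, 126 and 33 with the deposited table and 137 and 40 with outlier spots kept. Those lower were 63 with quantile normalization and 65 with each probe on its own. The listed genes outside the members, 22 called as reported, were 38 with trend and robust eBayes. In the other named genes no value changed sign either, with the same limits for settings that return the reported fold change and for left-out arrays. The cause of these shifts was not tested. Where an array was left out or a term added, fewer arrays or residual degrees of freedom remained. A probe near background has little signal to compare, which left SESN3 and the dimmer RHEB probe without a value.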
